A study of Mus musculus with 4 samples.

Results

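The choroid plexus is a folded epithelium that hangs in the brain ventricles, 1 of them directly under the cerebellum. Its cells are joined by tight junctions, secrete cerebrospinal fluid by moving ions and water, and release carrier and growth factor binding proteins into that fluid. Among these proteins transthyretin, encoded by Ttr, is the classic marker. This report follows 38 choroid plexus epithelium genes, given as a list of names, among the 55341 gene symbols counted in cerebellar RNA. All 38 were found, 28 of them passed the filter on low counts and were tested, and 10 were not tested.

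RNA was sequenced from the cerebellum of 2 Atoh1-Cre; Kdm6b fl/fl mice (cKO) and 2 Kdm6b fl/fl littermates without Cre (WT) at postnatal day 14, with 1 library for each mouse. The floxed segment covers exons 14 to 20 of Kdm6b, which encode the catalytic domain of this histone H3 lysine 27 demethylase, and both groups carry the floxed alleles. Cre was driven by Atoh1, which is active in granule neuron precursors, so that other cells of the dissected tissue keep the intact allele where Atoh1 was never active. Reads in genes numbered between 8811849 and 9892363 per library, and levels are given as TMM-scaled counts for each 1000000 counts in genes (CPM). Kdm6b itself stood at 126.4 and 118.9 CPM in the cKO libraries, against 153.6 and 153.8 CPM in the WT libraries (log2 fold change -0.33 with an SE of 0.076, adjusted p = 0.0162 by edgeR). The 8 listed granule neuron genes summed to 5204 and 4974 CPM in cKO, against 5733 and 6010 CPM in WT, so all 4 libraries held the labelled tissue. WT 1 alone lacked Xist (0.43 CPM, against 1356 to 1594 CPM in the other 3) and carried Y-linked transcripts, so sex differed within the WT group.

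The main feature of the 38 genes was a single library. In cKO 1, 33 of the 38 genes had their highest level, and 22 stood at least 2 times above the next highest library. No member was at least 2 times above the next library in cKO 2, WT 1 or WT 2. Of the 28 tested members 12 were that high in cKO 1, where 0.169% of all 16617 tested genes were. The same shares of all tested genes were 0.181% for cKO 2, 0.0662% for WT 1 and 0.0542% for WT 2, with 0 members in each. Fold changes of the members that rose are therefore also given without cKO 1. The members and the other lists were chosen with earlier results of these data known. Of the tested members, 3 passed the filter only through cKO 1 and 1 other library. Shares of members set beside all tested genes, here and below, are thus a description and not a test. In bulk tissue, fewer cells of a type and less RNA per cell cannot be told apart.

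Ttr had 607.5 CPM in cKO 1 and 13.9 CPM in cKO 2, against 1.72 CPM in WT 1 and 0.11 CPM in WT 2, from 6043, 124, 16 and 1 counts. Both cKO values lay above both WT values, but cKO 1 was 43.9 times cKO 2 in CPM. The label of the list held for cKO 1 in part. Ttr, Kl, Folr1, Aqp1, Cldn1 and Cldn2 were present together there, and are named because they were high in that library. Other members did not follow. Otx2 in cKO 1 was 1.03 times the next library, and Trpm3 and Cgnl1 lay within the WT range. Sulf1 and Lmx1a lay below both WT libraries, and Rdh5 had its lowest level in cKO 1. The label held poorly for the other libraries, where Folr1, Aqp1, Cldn1 and Krt18 had at most 5 counts each.

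**Figure D1:**
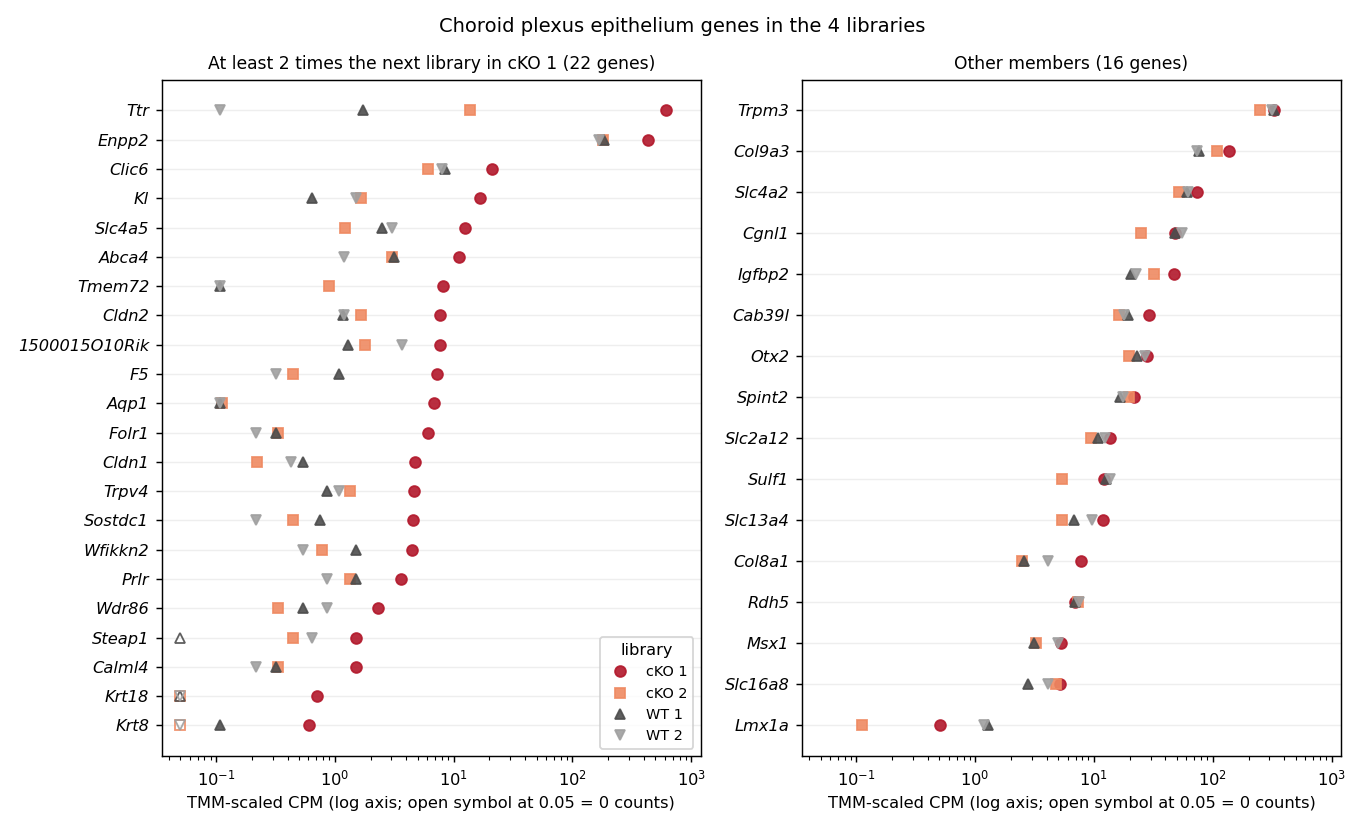
TMM-scaled CPM of the 38 genes in each library on a log axis (1 point a library, open symbols for 0 counts; levels of different genes are not corrected for transcript length). The 22 genes on the left are at least 2 times higher in cKO 1 (dark red circles) than in any other library, with Ttr at 607.5 CPM there, and the 16 genes on the right are not.

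The genes were put into 2 sets by the 2-fold line, which is a difference of degree. Of the 16 other members, 11 also exceeded the pooled other 3 libraries in cKO 1 beyond counting error. The median excess of cKO 1 over the mean of the other 3 libraries was 5.67 CPM for the 22 and 4.61 CPM for the 16. The 22 members that stood out in cKO 1 had a median WT level of 0.159 CPM per kilobase of exon (range 0 to 30.6, with Enpp2 the highest). The 16 other members had a median WT level of 2.73 CPM per kilobase (range 0.365 to 19.5) and were all tested. Detection alone did not part the sets, since 35 members in all had reads in each of the 4 libraries. The sets differed in level. Of the 16 other members, 15 were above the level of the filter (1.07 CPM) in all 4 libraries. Of the 22 members that stood out in cKO 1, 6 were. As background, several genes of the second set are also used by other cells of the cerebellum, such as Otx2 in granule neurons of the posterior lobules.

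A pair of promoter windows is shown because OTX2 is the homeobox factor that maintains choroid plexus epithelium and GGATTA (reverse complement TAATCC) is a hexamer bound by OTX factors. Windows of 300 bases, 250 before and 50 after the RefSeq start, existed for 31 of the 38 members (40 windows, RefSeq, GRCm38.p6). The hexamer was found on either strand in 2 member windows (5.0%), against 2320 of 32850 windows of all genes (7.06%). These were Abca4 at chr3:122044210-122044509 on the plus strand and Otx2 itself at chr14:48665060-48665359 on the minus strand. Each is written 5′ to 3′ on the strand of its gene, with the hexamer in capitals.
Abca4: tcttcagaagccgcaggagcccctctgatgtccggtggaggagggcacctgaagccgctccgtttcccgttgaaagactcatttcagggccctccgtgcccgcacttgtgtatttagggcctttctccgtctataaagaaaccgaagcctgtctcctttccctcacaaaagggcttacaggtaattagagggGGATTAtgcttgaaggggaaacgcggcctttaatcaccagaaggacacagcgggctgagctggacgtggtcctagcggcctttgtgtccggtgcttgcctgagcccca
Otx2: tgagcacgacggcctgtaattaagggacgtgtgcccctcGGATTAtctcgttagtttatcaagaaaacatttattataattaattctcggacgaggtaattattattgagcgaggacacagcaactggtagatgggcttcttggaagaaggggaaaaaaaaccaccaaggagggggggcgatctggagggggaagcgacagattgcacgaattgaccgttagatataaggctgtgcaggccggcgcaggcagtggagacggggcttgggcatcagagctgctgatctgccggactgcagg
The hexamer starts 58 bases before the start site in Abca4 and 211 bases before it in Otx2. Of the 17 members with a window that stood out in cKO 1, Abca4 alone held it. A match is a description of the sequence and not of binding.

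In the comparison of cKO with WT, 7 of the 28 tested members rose (25%, against 1.87% of all tested genes) and 0 fell (2.17% of all tested genes), by edgeR's quasi-likelihood test with Benjamini-Hochberg adjustment over 16617 genes. The 7 were Ttr, Igfbp2, Enpp2, Kl, Abca4, Cldn2 and Col9a3. Because the members were chosen with earlier results of these data known, the share that rose is not a test of the list. At an unadjusted p under 0.05, 3 members were lower, and DESeq2 and limma-voom also called 0 lower. Without cKO 1, or without cKO 2, edgeR called none of the members, and none of all genes, although 2315 and 1718 genes had an unadjusted p under 0.05 in those fits. Without WT 1 the count was 12 higher and 1 lower, and without WT 2 it was 11 higher and 0 lower. DESeq2 kept Ttr, Igfbp2 and Col9a3, and gave no adjusted p for 15 of the 28 members. Limma-voom kept Igfbp2 and Col9a3.

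The median log2 fold change of the 28 tested members was 0.67, against 0.0036 for all tested genes. It was -0.26 without cKO 1 and 0.99 without cKO 2. Of the 22 tested members with a positive fold change, 11 turned negative when cKO 1 was left out. The filter required 1.07 CPM in 2 libraries, and 3 of the tested members passed it only through cKO 1 and 1 other library. Both cKO libraries lay above both WT libraries for 8 tested members (23.2% of all tested genes), and below both for 2 (23.2% of all tested genes).

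**Figure D2:**
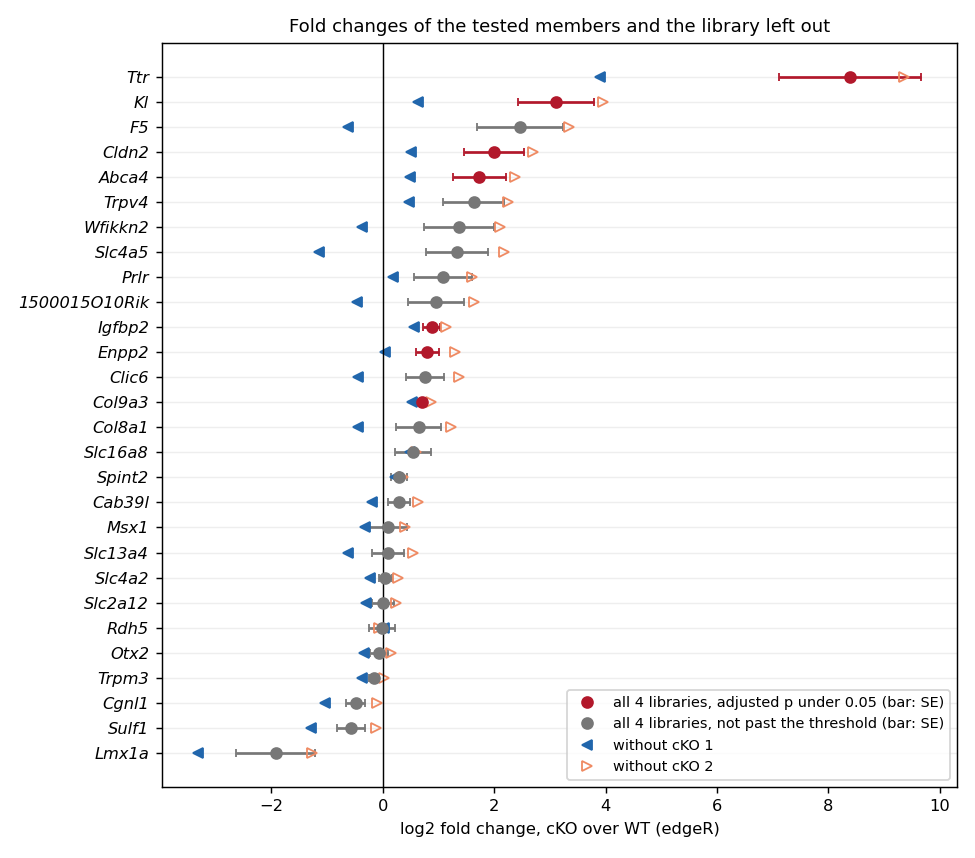
edgeR log2 fold change of cKO over WT for the 28 tested genes, with all 4 libraries (circles, bars are 1 SE, red where the adjusted p is under 0.05), without cKO 1 (filled blue triangles) and without cKO 2 (open orange triangles). Leaving out cKO 1 moves Kl to 0.63, Enpp2 to 0.03 and Slc4a5 to -1.15, while Igfbp2 and Col9a3 stay at 0.57 and 0.52.

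Secreted proteins made up 9 members, of which 7 stood out in cKO 1 and 4 rose. Ttr, which carries thyroxine and retinol-binding protein in the fluid, had a log2 fold change of 8.39 (SE 1.28, with edgeR giving an adjusted p = 0.000411). Its log2 fold change was 3.90 without cKO 1 and 9.36 without cKO 2, so that the direction was the same in both fits. Taken as single libraries, cKO 1 held 118.6 times the pooled level of the other 3 libraries (95% counting interval 100.4 to 141.2), and cKO 2 held 15.1 times that of the WT libraries (9.08 to 26.8). These intervals cover counting error only and say nothing of the variation between mice.

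Kl encodes klotho, a coreceptor for FGF23 that is also shed. It had 16.8 and 1.68 CPM in cKO 1 and cKO 2, against 0.65 and 1.51 CPM in WT 1 and WT 2 (log2 fold change 3.11 with an SE of 0.68, adjusted p = 0.0102 by edgeR). The other 3 libraries had 6 to 15 counts and cKO 1 was 10 times the next of them in CPM, with a log2 fold change of 0.63 without it. Enpp2 encodes autotaxin, which makes lysophosphatidic acid and is also a product of oligodendrocytes. It had 432.1 and 180.5 CPM in cKO, against 185.4 and 167.9 CPM in WT (log2 fold change 0.80 with an SE of 0.21, adjusted p = 0.0338 by edgeR). The groups overlapped, since cKO 2 lay between the WT libraries, and the log2 fold change was 0.03 without cKO 1.

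Igfbp2, which binds insulin-like growth factors, behaved otherwise. It had 47.0 and 31.9 CPM in cKO, against 20.6 and 22.5 CPM in WT (log2 fold change 0.88 with an SE of 0.15, adjusted p = 0.00153 by edgeR). Both cKO libraries were above both WT libraries, cKO 1 was only 1.47 times cKO 2, and the log2 fold change was 0.57 without cKO 1 and 1.13 without cKO 2.

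Of the remaining secreted proteins none passed the threshold. F5, coagulation factor V, had 72 and 4 counts in cKO, against 10 and 3 counts in WT (log2 fold change 2.46 with an SE of 0.78, adjusted p = 0.0837 by edgeR). cKO 2 lay inside the WT range, and the log2 fold change turned to -0.63 without cKO 1. Sostdc1, an inhibitor of BMP and Wnt signalling, was too low to test with 45 and 4 counts in cKO, against 7 and 2 counts in WT. Wfikkn2, which binds GDF8 and GDF11, had 44 and 7 counts in cKO, against 14 and 5 counts in WT. The same single high library was seen in 1500015O10Rik, the secreted peptide gene that RefSeq names Ecrg4, with 7.74 and 1.79 CPM in cKO, against 1.29 and 3.66 CPM in WT. Spint2, a serine protease inhibitor, differed little, with 21.9 and 19.9 CPM in cKO, against 16.7 and 17.6 CPM in WT (log2 fold change 0.29 with an SE of 0.15, adjusted p = 0.35 by edgeR).

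Transporters and channels made up 11 members, of which 6 stood out in cKO 1. Aqp1 is the water channel of the apical membrane. It had 68 and 1 counts in cKO, against 1 and 1 counts in WT, so 3 libraries held a single read each. Folr1, the folate receptor that carries folate into the fluid, had 61 and 3 counts in cKO, against 3 and 2 counts in WT. Neither was tested, and cKO 1 held 62.7 times (95% counting interval 20.6 to 311.8) and 21.1 times (10.1 to 51.1) the pooled level of the other 3 libraries. The single reads of Aqp1 elsewhere were too few to compare cKO 2 with WT.

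Abca4, a lipid transporter best known from photoreceptors, was the 1 transporter that rose. It had 11.2 and 3.02 CPM in cKO, against 3.12 and 1.19 CPM in WT (log2 fold change 1.73 with an SE of 0.48, adjusted p = 0.0432 by edgeR), and 0.49 without cKO 1. The groups overlapped by a small margin at cKO 2 and WT 1. Slc4a5, a sodium bicarbonate cotransporter, had 12.4 and 1.23 CPM in cKO, against 2.47 and 3.02 CPM in WT. Here cKO 1 was the highest and cKO 2 the lowest library, and the log2 fold change of 1.33 (SE 0.56, with edgeR giving an adjusted p = 0.226) became -1.15 without cKO 1. Clic6, a chloride intracellular channel protein, had the same order, with 21.2 and 6.03 CPM in cKO, against 8.39 and 7.97 CPM in WT. Trpv4, a cation channel that responds to osmotic change, had 46 and 12 counts in cKO, against 8 and 10 counts in WT (log2 fold change 1.63 with an SE of 0.54, adjusted p = 0.107 by edgeR).

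The 5 other transporters stayed under the 2-fold line in cKO 1. Trpm3, a cation channel, was abundant everywhere, with 327.5 and 248.8 CPM in cKO, against 329.8 and 316.3 CPM in WT. cKO 1 lay within the WT range and cKO 2 below it (log2 fold change -0.16 with an SE of 0.091, adjusted p = 0.4 by edgeR). Slc4a2, the anion exchanger AE2, had 73.6 and 52.3 CPM in cKO, against 60.2 and 62.2 CPM in WT. Slc13a4, a sulfate transporter, had 12.0 and 5.36 CPM in cKO, against 6.78 and 9.69 CPM in WT. In each of these 3 genes cKO 2 was the lowest library. The glucose transporter Slc2a12 and the lactate transporter Slc16a8 had log2 fold changes of 0.0016 and 0.54, with cKO 1 at 1.10 and 1.09 times the next library.

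Junction and cytoskeleton genes made up 5 members. Cldn2 encodes the claudin that makes the tight junctions of leaky epithelia permeable to cations. It had 7.74 and 1.68 CPM in cKO, against 1.18 and 1.19 CPM in WT (log2 fold change 2.00 with an SE of 0.54, adjusted p = 0.04 by edgeR). Both cKO libraries were above both WT libraries, but the log2 fold change was 0.50 without cKO 1. Cldn1, another claudin, had 47 and 2 counts in cKO, against 5 and 4 counts in WT, and was not tested.

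The keratins of simple epithelia had few reads. Krt18 had 7 and 0 counts in cKO, against 0 and 0 counts in WT, which puts cKO 1 at least 2.33-fold higher than a floor of 3 counts in each other library. Krt8 had 6 and 0 counts in cKO, against 1 and 0 counts in WT. Cgnl1, paracingulin, ran the other way. It had 47.9 and 24.9 CPM in cKO, against 47.8 and 55.1 CPM in WT (log2 fold change -0.49 with an SE of 0.18, adjusted p = 0.142 by edgeR). cKO 1 lay within the WT range, and cKO 2 held 0.484 times the pooled WT level (95% counting interval 0.417 to 0.561).

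**Figure D3:**
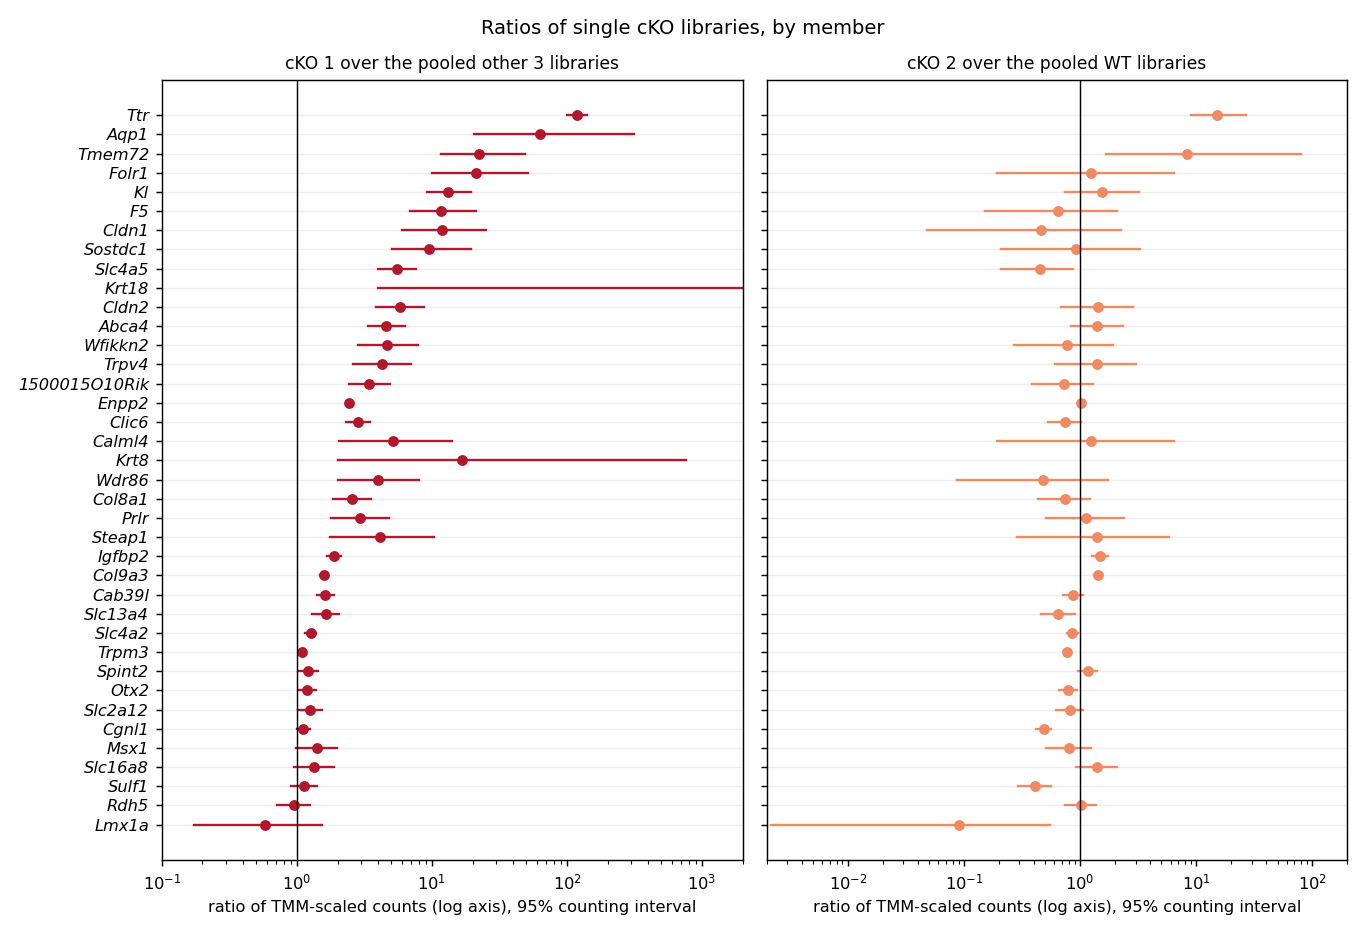
Ratio of cKO 1 to the pooled other 3 libraries (left) and of cKO 2 to the pooled WT libraries (right) for each gene, as points with 95% counting intervals on log axes, ordered by the lower bound on the left (no point where the lower level is 0 counts, no ratio on the right where both sides had at most 3 counts, and intervals running past the axis are cut). Ttr is at 118.6 and 15.1, while the intervals of Folr1 and Kl lie above 1 on the left and hold 1 on the right.

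None of the 3 transcription factors reached the 2-fold line in cKO 1. Otx2 had 27.9 and 19.8 CPM in cKO, against 23.0 and 27.1 CPM in WT (log2 fold change -0.07 with an SE of 0.16, adjusted p = 0.885 by edgeR). cKO 1 was 1.03 times the next library. Msx1, a homeobox factor of the roof plate and of choroid plexus, had 53 and 29 counts in cKO, against 29 and 46 counts in WT. Lmx1a, a LIM homeobox factor of the rhombic lip and of roof plate derivatives, had 5 and 1 counts in cKO, against 12 and 11 counts in WT. Both cKO libraries lay below both WT libraries, but the log2 fold change of -1.92 (SE 0.71) missed the threshold (edgeR adjusted p = 0.154).

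Unipolar brush cells, another product of the rhombic lip, also use Lmx1a. Of the 3 genes listed for them 2 fell, as did 5 of the 8 granule neuron genes (2.17% of all tested genes). Eomes had 34.7 and 21.7 CPM in cKO, against 49.9 and 56.9 CPM in WT (log2 fold change -0.91 with an SE of 0.15, adjusted p = 0.000827 by edgeR). Calb2 had 335.9 and 281.9 CPM in cKO, against 423.8 and 417.4 CPM in WT (log2 fold change -0.45 with an SE of 0.078, adjusted p = 0.00163 by edgeR). The part of unipolar brush cells in the levels of Lmx1a, Eomes and Calb2 was not tested.

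The 3 matrix genes showed 3 patterns. Col9a3, a chain of collagen IX, had 136.6 and 107.6 CPM in cKO, against 76.3 and 74.3 CPM in WT (log2 fold change 0.70 with an SE of 0.096, adjusted p = 0.000144 by edgeR). Both cKO libraries were above both WT libraries, and the log2 fold change was 0.52 without cKO 1 and 0.86 without cKO 2. Sulf1, an extracellular heparan sulfate sulfatase, had 12.1 and 5.36 CPM in cKO, against 12.6 and 13.7 CPM in WT. Both cKO libraries were below WT, cKO 1 by little, and the log2 fold change of -0.58 (SE 0.25, with edgeR giving an adjusted p = 0.256) was -1.29 without cKO 1. Col8a1, a chain of collagen VIII, had 7.84 and 2.46 CPM in cKO, against 2.58 and 4.09 CPM in WT, with cKO 1 at 1.92 times the next library and so just outside the 2-fold line. 1500015O10Rik, at 2.11 times, was the member just inside it.

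Of the 7 remaining members 5 stood out in cKO 1. Prlr, Rdh5 and Cab39l were tested and none of them passed the threshold, while Tmem72, Calml4, Steap1 and Wdr86 were not tested. Tmem72, a transmembrane protein, had 81 and 8 counts in cKO, against 1 and 1 counts in WT. It was the 1 gene besides Ttr, Igfbp2 and Col9a3 for which cKO 2 exceeded the pooled WT level beyond counting error (8.30 times, 95% counting interval 1.66 to 80.3). Prlr, the prolactin receptor, had 36 and 12 counts in cKO, against 14 and 8 counts in WT. The calmodulin-like gene Calml4 had 15 and 3 counts in cKO, against 3 and 2 counts in WT. Steap1 had 15 and 4 counts in cKO, against 0 and 6 counts in WT, and Wdr86 had 23 and 3 counts in cKO, against 5 and 8 counts in WT.

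The other 2 genes of this group stayed under the 2-fold line. Rdh5, a retinol dehydrogenase, had 6.94 and 7.37 CPM in cKO, against 6.99 and 7.54 CPM in WT, and was the 1 member with its lowest level in cKO 1. Cab39l, a scaffold of the kinase LKB1, had 29.1 and 16.3 CPM in cKO, against 19.5 and 18.0 CPM in WT (log2 fold change 0.29 with an SE of 0.19, adjusted p = 0.504 by edgeR). cKO 1 was 1.5 times the next library, and the log2 fold change was -0.20 without cKO 1 and 0.64 without cKO 2.

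Among the tested members cKO 1 was above both WT libraries in 23 of 28 (36.9% of all tested genes). cKO 2 was above both WT libraries in 8 of 28 (38.5% of all tested genes) and below both in 12 of 28 (37.4% of all tested genes), shares near the background. Counted over all 38 members, tested or not, 14 were below both WT libraries in cKO 2, which were 10 of the 16 genes under the 2-fold line in cKO 1 and 4 of the 22 above it. Counting error alone did not cover the lower level of cKO 2 in 7 of those 16, which were Cgnl1, Sulf1, Lmx1a, Trpm3, Otx2, Slc4a2 and Slc13a4. The same held for 1 of the 22, Slc4a5 (0.448 times the pooled WT level, 95% counting interval 0.210 to 0.870). The share of all tested genes that would meet this is not given. Libraries of 1 group varied beyond counting error (chi-square per degree of freedom 3.99 in cKO and 3.56 in WT). The split into 16 and 22 genes was chosen after the values were seen and was not tested.

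Per kilobase of exon, the excess in cKO 1 over the mean of the other 3 libraries was 507.8 CPM for Ttr, 44.0 for Enpp2, 13.1 for Col9a3 and 11.9 for Igfbp2. In summed reads the 38 genes held 1948 and 776.4 CPM in cKO, against 852.8 and 842.8 CPM in WT. Without Ttr the sums were 1341 and 762.6 CPM in cKO, against 851.0 and 842.7 CPM in WT. The excess of cKO 1 remained without Ttr. cKO 2 lay below both WT libraries in both sums, largely through Trpm3. Without Trpm3 the sums were 1621 and 527.6 CPM in cKO, against 522.9 and 526.5 CPM in WT, and without Trpm3 and Ttr they were 1013 and 513.8 CPM in cKO, against 521.2 and 526.4 CPM in WT.

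Ranked by how far cKO 1 stood above the next library, 8 of the first 10 tested genes with at least 20 counts there were members (Ttr, Kl, F5, Cldn2, Slc4a5, Abca4, Trpv4 and Wfikkn2). The other 2 were Car12, a carbonic anhydrase of choroid plexus, and Col8a2, a chain of collagen VIII. Of the members named, F5, Trpv4 and Wfikkn2 passed the filter only through cKO 1 and 1 other library. The members were chosen with earlier results of these data known, so the ranking is a description and not a test. Car12 rose, with 66 and 10 counts in cKO, against 9 and 3 counts in WT (log2 fold change 2.58 with an SE of 0.67, adjusted p = 0.0331 by edgeR). The log2 fold change of Car12 was 0.78 without cKO 1. It passed the filter only through the cKO libraries, with 6.64 and 1.12 CPM there, against 0.97 and 0.32 CPM in WT. Col8a2 had 69 and 13 counts in cKO, against 12 and 22 counts in WT. The next non-members in this ranking were the potassium channel gene Kcnj13, which belongs to choroid plexus too, the semaphorin gene Sema3b, the basement membrane collagen gene Col4a3, and AC119957.1, 2810405F17Rik, Gm48267, Gm2155 and Gm26536, all between 2.15 and 2.73 times the next library. Of all tested genes, 6 stood at least 4 times above the next library in cKO 1 with at least 20 counts, and 5 of them were members.

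A second list of 20 choroid plexus genes was mixed, with sums of 310.3 and 297.1 CPM in cKO, against 265.4 and 265.1 CPM in WT. Of its 12 tested genes 4 rose (1.87% of all tested genes) and 0 fell (2.17%). Car12, among these 4, passed the filter only through the cKO libraries, where it was high. At least 2 times the next library in cKO 1 were 6 of all 20, of which Car12 and Kcnj13 were tested (0.169% of all tested genes). Kcne2, Slc28a3, Prr32 and Rbm47 did not pass the filter, so that share is no background for them. Kcne2, a potassium channel subunit, had 31 and 0 counts in cKO, against 1 and 0 counts in WT, and Prr32 had 10 and 0 counts in cKO, against 0 and 0 counts in WT. Htr2c, the serotonin receptor 2C, differed from these. It had 14.8 and 9.94 CPM in cKO, against 3.77 and 2.48 CPM in WT (log2 fold change 1.99 with an SE of 0.28, adjusted p = 0.000166 by edgeR), and 1.67 without cKO 1. Both cKO libraries were above both WT libraries for Htr2c, and Ttr in cKO 2 stood at 2.28% of its level in cKO 1. Ezr, the membrane linker ezrin, had 42.2 and 55.9 CPM in cKO, against 27.6 and 27.6 CPM in WT (log2 fold change 0.83 with an SE of 0.13, adjusted p = 0.000556 by edgeR), and was higher in cKO 2. Slc46a1, the proton-coupled folate transporter, also rose, with 27.1 and 28.8 CPM in cKO, against 17.8 and 21.5 CPM in WT (log2 fold change 0.51 with an SE of 0.14, adjusted p = 0.0434 by edgeR).

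**Figure D4:**
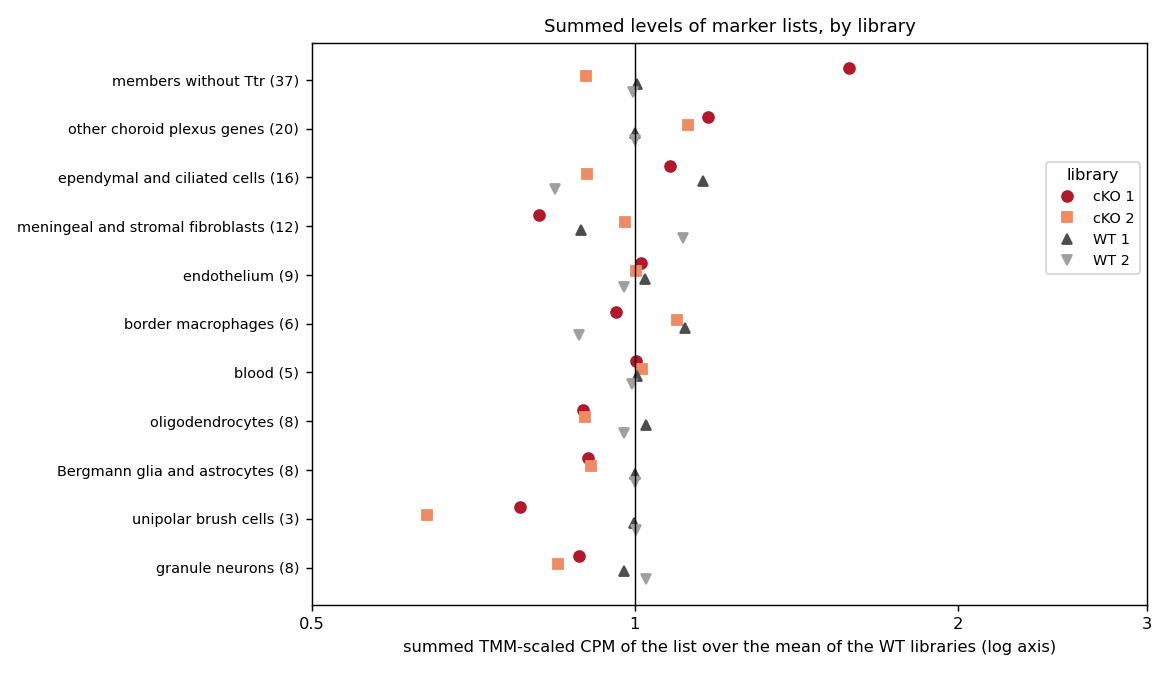
Summed TMM-scaled CPM of each marker list in each library (points) over the mean of the WT libraries, on a log axis, with the number of genes in brackets. The 37 members without Ttr reach 1341 CPM in cKO 1, against 851.0 and 842.7 CPM in WT. The second choroid plexus list reaches 310.3 CPM in cKO 1, against 265.4 and 265.1 CPM in WT. The ependymal list reaches 42.0 CPM in cKO 1, against 45.2 and 32.9 CPM in WT.

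Lists of neighbouring tissue were read in the same way. The 16 ependymal and ciliated cell genes, which mark the lining of the ventricle, summed to 42.0 and 35.2 CPM in cKO, against 45.2 and 32.9 CPM in WT, and 0 of 7 tested genes were called. Of these 16 genes 8 were highest in cKO 1, 2 of them at least 2 times the next library, which were Rsph1 (14 and 1 counts in cKO, against 6 and 5 counts in WT) and Pifo (4 and 0 counts in cKO, against 1 and 1 counts in WT). The 12 genes of meningeal and stromal fibroblasts summed to 503.0 and 605.5 CPM in cKO, against 551.1 and 685.7 CPM in WT, with cKO 1 the lowest library and 1 gene, Apod, lower (log2 fold change -0.45 with an SE of 0.083, adjusted p = 0.00255 by edgeR). The 9 endothelial genes summed to 201.9 and 199.8 CPM in cKO, against 203.6 and 194.7 CPM in WT. The 5 blood genes summed to 101.3 and 102.7 CPM in cKO, against 101.6 and 100.5 CPM in WT, and the 6 border macrophage genes to 15.9 and 18.1 CPM in cKO, against 18.4 and 14.7 CPM in WT. None of these 3 lists had a gene past the threshold. The 8 oligodendrocyte genes, read beside Enpp2, summed to 9024 and 9064 CPM in cKO, against 10330.0 and 9856 CPM in WT, with 1 gene lower. Of 8 Bergmann glia and astrocyte genes 1 rose and 2 fell, and of 8 granule neuron genes 1 rose and 5 fell, where 1.87% of all tested genes rose and 2.17% fell. How much choroid plexus each piece of tissue held was not tested by any other measure.

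Several members share exon positions with another annotated gene, and the strand setting of the counting is not given in the sources used here. These are Cab39l with Cdadc1, Col9a3 with Tcfl5, Enpp2 with Gm26684, F5 with Gm16548, Krt8 with Gm36026, Otx2 with Otx2os1 and Gm49154, Prlr with Gm21973, Rdh5 with Bloc1s1, Slc2a12 with Tbpl1, Slc4a2 with Fastk and Gm22333, and Trpm3 with C330002G04Rik and Gm27151. Their values are uncertain to the extent that shared reads were given to 1 gene or to neither.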

How the data were processed

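RNA-seq of cerebellum from 2 cKO and 2 WT mice was used, grouped by the genotype labels. Each group has 1 label whose description and title give different replicate numbers, and the title was followed. The authors deposited raw counts per gene symbol for each library. Their notes name Trimmomatic 0.38 and STAR 2.7.2b with the mm10 build, and their methods name HTSeq-count over exons. Total RNA was enriched for poly(A). The 5 summary lines that name no gene were left out of library sizes, so that 39.0% to 40.5% of entries per library lay in genes. Genes passing filterByExpr (minimum count 10) were scaled by TMM and tested with edgeR 4.0.16 (R 4.3.3). CPM are TMM-scaled counts for each 1000000 counts in all genes. DESeq2 1.42.0 and limma 3.58.1 (voom) were alternatives, with other scalings and filters, a replicate block and each library left out. The fit was tested on simulated data. Counting intervals are exact (conditional binomial, 95%, SciPy 1.17.1) and cover counting error only. Cross-checks of libraries gave a chi-square per degree of freedom of 3.99 within cKO and 3.56 within WT, so no library was a duplicate. Exon lengths and overlaps are from GENCODE M21. All 38 members are accounted for. Outside them, genes were named if targeted, past the threshold or most abundant in a list, or among the 10 other tested genes with the largest ratio of cKO 1 to the next library. The members and all lists were chosen with earlier results of these data known. The columns hold no comparisons of the authors.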

Additional observations from a re-analysis of the deposited data

How the results depend on the processing

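With 2 mice a group, calls on members depended on single libraries and on the tool. The 7 higher members became 1 with no filter on low counts (Col9a3), 3 in DESeq2 and 2 in limma-voom. Leaving out 1 library in edgeR, DESeq2 or limma-voom (the last 2 added after seeing the data) gave 0 to 12 higher and 0 to 2 lower members. The replicate block gave 8 higher members (F5 added) and 1 lower member (Cgnl1, log2 fold change -0.53, adjusted p = 0.00369). Same-numbered libraries did not deviate together (correlation 0.0429), so no pairing by number was seen. With 2 mice a group this value cannot exclude that same-numbered mice were paired. A line of 4 times the next library left 12 members in cKO 1 in place of 22, and 1.5 times gave 23. The 2 lower were Trpm3 and Cgnl1 in DESeq2 without cKO 1. Sign changes were seen near 0 for Slc2a12 (-0.018 with upper-quartile scaling, -0.00023 with no filter, -0.0015 in DESeq2, -0.013 in limma-voom, -0.011 with the replicate block) and Rdh5 (0.0074 by library size alone). With 1 library left out in edgeR, log2 fold changes that turned sign ranged from -0.38 to 2.27 for Wfikkn2, -0.63 to 3.54 for F5, -0.47 to 1.89 for 1500015O10Rik, -0.44 to 1.38 for Clic6, -1.15 to 2.17 for Slc4a5, -0.23 to 0.27 for Slc4a2, -0.62 to 0.54 for Slc13a4, -0.29 to 0.24 for Slc2a12, -0.38 to 0.022 for Trpm3, -0.34 to 0.15 for Otx2, -0.32 to 0.46 for Msx1, -0.44 to 1.23 for Col8a1, -0.20 to 0.64 for Cab39l and -0.076 to 0.033 for Rdh5. The other scalings gave 6 or 7 higher members and a filter on the mean CPM gave 10. The causes were not tested. With 1 library left in a group, that library is assumed to vary like the others. Depth limits the 10 untested members, none of which had over 8 counts in any other library.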
